A study of Canis lupus familiaris with 16 samples.

Results

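The transcripts described here are those of 8 tight junction genes, CLDN1, CLDN2, CLDN3, CLDN4, CLDN7, CLDN12, OCLN and TJP1, found by gene symbol among the 39543 symbols of 16 RNA sequencing libraries. The cells are 4 canine hepatocellular carcinoma (HCC) lines established from liver tumours of canine patients: KU-cHCC-001 and KU-cHCC-002, together with KU-cHCC-004 and with KU-cHCC-005. Every line was exposed for 24 h to 30 µM sorafenib or to its vehicle DMSO (dimethyl sulfoxide), and to 15 µM toceranib or to its vehicle DPBS (a phosphate-buffered saline), with 1 library per line and treatment. Sorafenib is a multikinase inhibitor, and toceranib is a veterinary inhibitor of receptor tyrosine kinases such as KIT. Where values of several lines follow each other, they stand in ascending order of the line number. The genes were chosen from these same counts, for the levels of CLDN2 against the sealing claudins, the difference of KU-cHCC-001 from the other lines and the drug effects. Their values in those comparisons are therefore a description, without a test. The lists of further junction genes and of cell type markers used below were also chosen with earlier results of these data known.

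Tight junctions close the space between neighbouring epithelial cells and decide which ions and solutes may pass through it. Claudins, small proteins that cross the membrane, form the strands of the junction: CLDN1, CLDN3, CLDN4 and CLDN7 are generally counted as sealing, whereas CLDN2 forms a channel for cations and water and makes an epithelium leaky. OCLN (occludin) is a further membrane protein of the strands, and TJP1 (ZO-1) is the scaffold beneath them that ties claudins to actin. In liver, tight junctions separate the bile canaliculus from the blood side of the hepatocyte, and they also seal the bile duct epithelium.

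Library totals ran from 12008366 to 21943572 counts, and levels are counts per 1000000 (CPM) after TMM scaling, which does not divide by gene length, so levels are compared between libraries and not between genes. Of the 8 hepatocyte markers listed, 6 were found by symbol. With DMSO, ALB lay between 0.0521 and 0.0602 CPM, where 3 counts would be 0.156 to 0.181 CPM, and SERPINA1 was at 0. That list summed to 6.05 CPM in KU-cHCC-001 and 88.1 to 89.0 CPM in the other lines, where HNF4A was 38.6 to 79.9 CPM. Its highest sum was 199.5 CPM with toceranib and 244 CPM with DPBS. The summed cholangiocyte markers with DMSO reached 1073 CPM in KU-cHCC-001 and 8954 to 13220 CPM in the other lines. The DPBS libraries did not, as a set, carry the character of their labelled lines. By deviations from the treatment means, 2 of 4 DMSO libraries correlated best with the DPBS library of the same label. The r between DMSO and DPBS libraries of the same label ran from -0.449 to 0.288. L1CAM, a gene that marked KU-cHCC-001 with DMSO (1125 CPM), sorafenib (457 CPM) and toceranib (1015 CPM), stood at 1.502 CPM in the DPBS library bearing that line's name. By the median squared count difference over sampling noise, the DPBS libraries labelled 001 and 004 (2.41) and those labelled 002 and 005 (2.27) were close pairs, against 11 to 126 for pairs within the other treatments. The transcripts of COL3A1, LUM and DCN, matrix genes of fibroblasts, were at 0 in every DMSO and sorafenib library but summed to 110 and 124 CPM in the DPBS libraries labelled 002 and 005, and to 6.86 and 91.1 CPM in the toceranib libraries of KU-cHCC-004 and KU-cHCC-005 (0.587 CPM, all of it LUM, in that of KU-cHCC-001). Drug effects were therefore set against DMSO of the same line in the 12 DMSO, sorafenib and toceranib libraries. There each library correlated best with those of its own line. L1CAM was less steady: in KU-cHCC-004 it was 36.0 CPM with DMSO, 49.8 CPM with sorafenib and 2.72 CPM with toceranib. In the same order it was 2.82, 6.98 and 20.8 CPM in KU-cHCC-005, and 0.241, 0.498 and 3.10 CPM in KU-cHCC-002. The toceranib libraries of KU-cHCC-004 and KU-cHCC-005 were also the closest pair outside DPBS, at 11. Whether these libraries hold cells of their labelled lines only was not tested. For toceranib the contrast with DMSO also changes the vehicle, so drug and vehicle cannot be told apart there. In bulk RNA, fewer cells of a type and less RNA per cell cannot be told apart, and the p-values below measure only the spread between these libraries.

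KU-cHCC-001 differed from the other lines in its claudins. With DMSO, CLDN7, a claudin that also pairs with the adhesion protein EPCAM, stood at 0.261 CPM in this line (5 counts), against 389, 455 and 222 CPM in the 3 others. CLDN4 stood at 1.67 CPM, against 704, 803 and 338 CPM. CLDN3 stood at 17.6 CPM, against 401, 356 and 185 CPM. All 3 sealing claudins thus lay far below every other line, by 292-fold, 156-fold and 10.2-fold from the lowest of them on CPM + 0.5. CLDN1, the sealing claudin best known from skin, went the other way: it stood at 257 CPM here and at 1.81, 54.6 and 38.8 CPM elsewhere, so KU-cHCC-002 was nearly without it. The gap of KU-cHCC-001 above the highest other line was 4.67-fold.

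The remaining genes set the line apart less. OCLN was 19.0 CPM in KU-cHCC-001 and 64.7, 82.0 and 64.7 CPM in the others, 3.34-fold below the lowest of them. CLDN2 was 78.7 CPM in KU-cHCC-001 against 34.0, 22.2 and 40.6 CPM, the highest of the 4 lines. CLDN12, a claudin that lacks the usual tail for binding TJP1, was 28.5 CPM against 26.0, 40.2 and 38.2 CPM, and TJP1 was 136 CPM against 111, 170 and 108 CPM. For CLDN12 and TJP1 the value of KU-cHCC-001 lay within the range of the other lines. At a gap of 4-fold on CPM + 0.5, 3 of the 8 genes were lower than in each of the 3 other lines and 1 was higher, and of all 14938 genes tested 3.0% were lower and 3.47% higher by this rule. With sorafenib, CLDN3, CLDN4 and CLDN7 again lay below every other line, and CLDN1 fell short of the 4-fold gap (169 CPM against 3.34, 67.4 and 51.8 CPM), so 3 were lower and 0 higher, against 2.38% and 3.22% of all genes. With toceranib, CLDN4 and CLDN7 were lower and CLDN1 was higher (2 and 1 of the 8, against 3.13% and 3.47%).

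**Figure D1:**
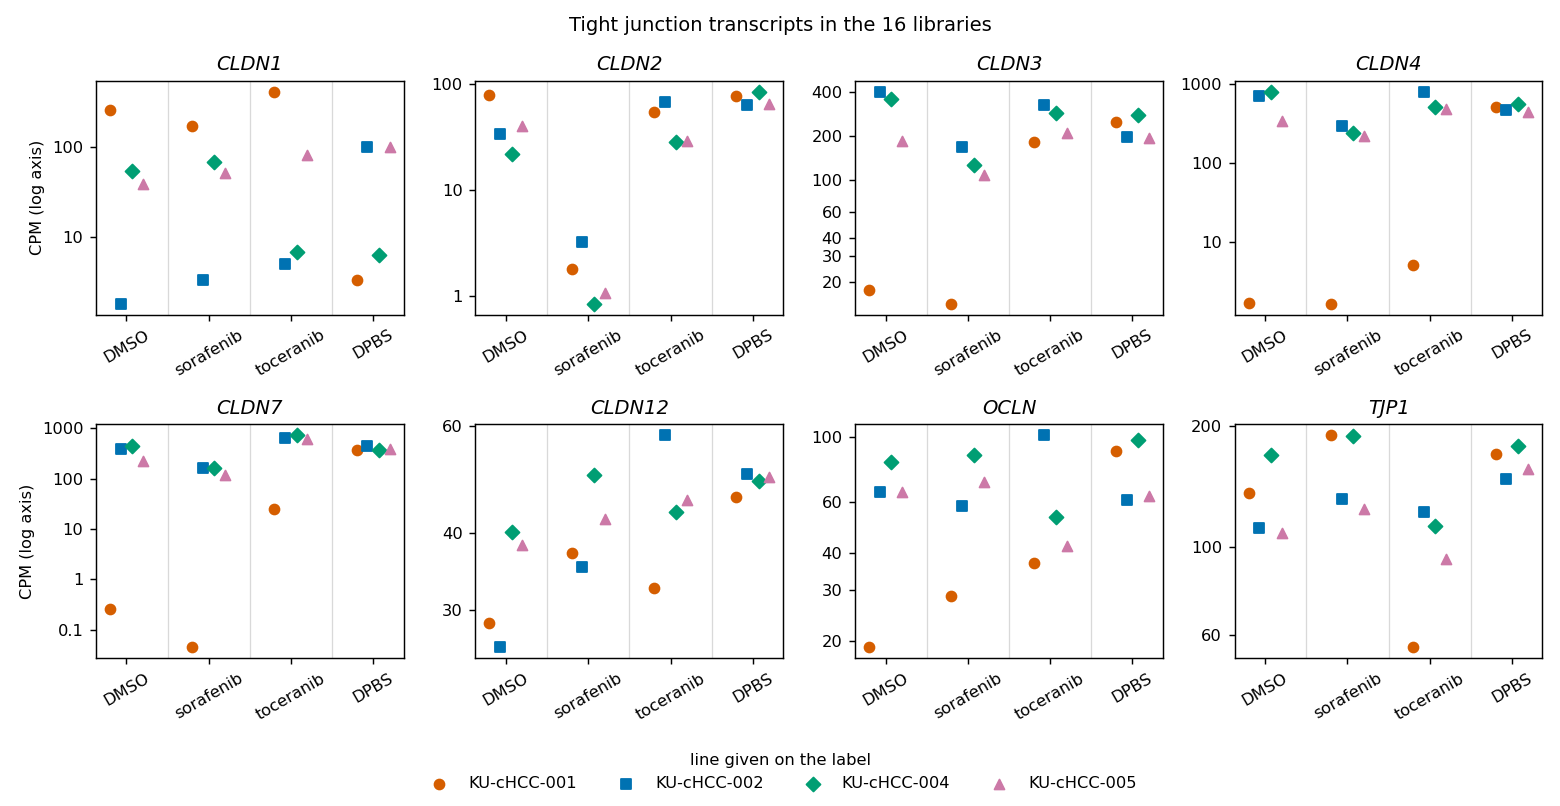
Level of each of the 8 genes (CPM, log axis, a scale of its own in each panel) in the 16 libraries, by treatment, with 1 point per library and the line of its label as colour and shape. CLDN3, CLDN4 and CLDN7 of KU-cHCC-001 lie below the other lines with DMSO and sorafenib, CLDN2 drops in all 4 sorafenib libraries, and the DPBS library that bears its name sits with the other lines.

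Claudins outside the 8 were also distinct in KU-cHCC-001. CLDN10, which forms channels for ions, stood at 21.9 CPM with DMSO, 1.32 CPM with sorafenib and 77.3 CPM with toceranib in this line, and had 0 counts in those of the 3 other lines, where 3 counts would be at most 0.254 CPM. CLDN16, best known from magnesium handling in the kidney and the neighbour of CLDN1 in the RefSeq gene table (assembly UU_Cfam_GSD_1.0), stood at 6.93, 2.33 and 72.1 CPM in the same 3 libraries and at 0.621 CPM or less in every other library. CLDN10 and CLDN16 both had 0 counts in the DPBS library that bears its name, where 3 counts would be 0.161 CPM. CLDN3 and CLDN4 are also neighbours in that table. The CLDN3 to CLDN4 count ratio was 10.6 with DMSO, 8.73 with sorafenib and 35.6 with toceranib in KU-cHCC-001. In the other 13 libraries it stayed between 0.407 and 0.570, whatever the treatment.

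Other epithelial junction genes were low in the same line. They come from lists chosen with earlier results of these data known, so their shares are a description. Of 87 further junction genes tested, which were listed in 8 functional groups, 12 lay at least 4-fold below every other line with DMSO and 5 at least 4-fold above, or 13.8% and 5.75%, against 3.0% and 3.47% of all genes. Among the lower ones was GRHL2, a transcription factor of epithelial junction genes, at 0.313 CPM against 42.0, 68.7 and 46.6 CPM. CDH1 (E-cadherin) of adherens junctions was 231 CPM against 1480 to 2566 CPM. The serine protease gene PRSS8 had 0 counts, which allows up to 0.156 CPM, against 64.1 to 82.8 CPM. Also lower were CLDN23, MARVELD3, CGN, MYH14, PKP3, NECTIN4 and HNF4A. SNAI1, listed as a repressor of epithelial junction genes, was lower too. The higher ones were CLDN16, JAM3, NECTIN3, TFCP2L1 and ZEB1, a repressor of epithelial genes, at 16.9 CPM against 0.0553 to 0.226 CPM. The summed mesenchymal markers moved with this difference, at 13000 CPM in KU-cHCC-001 and 2060 to 2557 CPM in the other lines, with COL3A1, LUM and DCN at 0 in all 4; their part in the difference was not tested.

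With sorafenib, CLDN2 was nearly lost in all 4 lines, and the other 7 genes moved less. CLDN2 went from 78.7 to 1.80 CPM in KU-cHCC-001, from 34.0 to 3.29 CPM in KU-cHCC-002, from 22.2 to 0.849 CPM in KU-cHCC-004 and from 40.6 to 1.09 CPM in KU-cHCC-005. The highest sorafenib library thus lay below the lowest DMSO library, at 0.0229, 0.0966, 0.0383 and 0.0267 times the DMSO level of the same line. The means were 43.9 ± 24.4 CPM with DMSO and 1.76 ± 1.10 CPM with sorafenib (SD, n = 4), and the fitted log2 fold change was -4.71 with a standard error (SE) of 0.35.

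The sealing claudins CLDN3, CLDN4 and CLDN7 were lower with sorafenib in the 3 lines other than KU-cHCC-001. CLDN4 stood at 295, 240 and 218 CPM with sorafenib in these lines, against 704, 803 and 338 CPM with DMSO. CLDN3 stood at 167, 125 and 108 CPM against 401, 356 and 185 CPM, and CLDN7 at 167, 160 and 118 CPM against 389, 455 and 222 CPM. For each of the 3 genes, every sorafenib library of these lines lay below every DMSO library of them. The sorafenib to DMSO ratio of CLDN7 was 0.428, 0.352 and 0.531. In KU-cHCC-001, where these claudins were low to begin with, CLDN3 went from 17.6 to 14.2 CPM and CLDN4 from 1.67 to 1.62 CPM. CLDN7 there had 5 counts with DMSO and 1 with sorafenib, a ratio of 0.168 with an exact 95% interval of 0.00356 to 1.51 for counting error only. Over the 4 lines the fitted log2 fold changes were -1.10 (SE 0.50) for CLDN3, -1.06 (SE 0.28) for CLDN4 and -1.20 (SE 0.70) for CLDN7.

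CLDN1, CLDN12, OCLN and TJP1 did not share the decrease. CLDN1 was lower with sorafenib in KU-cHCC-001, by 0.60 on the log2(CPM + 0.5) scale used for single lines, and higher in the 3 other lines by 0.73, 0.30 and 0.41. CLDN12 was higher in 4 of 4 lines by 0.14 to 0.43, with means of 33.3 ± 7.04 CPM with DMSO and 41.1 ± 6.55 CPM with sorafenib (SD, n = 4), whose ranges overlap. TJP1 was also higher in 4 of 4 lines, by 0.16 to 0.48, with overlapping means of 131 ± 28.5 and 159 ± 35.9 CPM (SD, n = 4). OCLN was 28.4, 58.0, 86.2 and 69.9 CPM with sorafenib against 19.0, 64.7, 82.0 and 64.7 CPM with DMSO, so the difference lay within the spread of the lines. The fitted log2 fold changes were 0.19 (SE 0.58) for CLDN1, 0.30 (SE 0.20) for CLDN12, 0.12 (SE 0.28) for OCLN and 0.27 (SE 0.24) for TJP1.

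Over all genes, edgeR's quasi-likelihood test with Benjamini-Hochberg adjustment called 2935 of 14938 at an adjusted p under 0.05, which is 19.6%. Without KU-cHCC-002 it called 915, without KU-cHCC-004 596 and without KU-cHCC-005 783. In that count stand 2 of the 8, CLDN2 and CLDN4, both lower, which is given as a description because the genes were chosen on this contrast; 9.59% of all genes were called higher and 10.1% lower. The median fitted log2 fold change of the 8 was -0.47, against -0.02 over all genes.

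**Figure D2:**
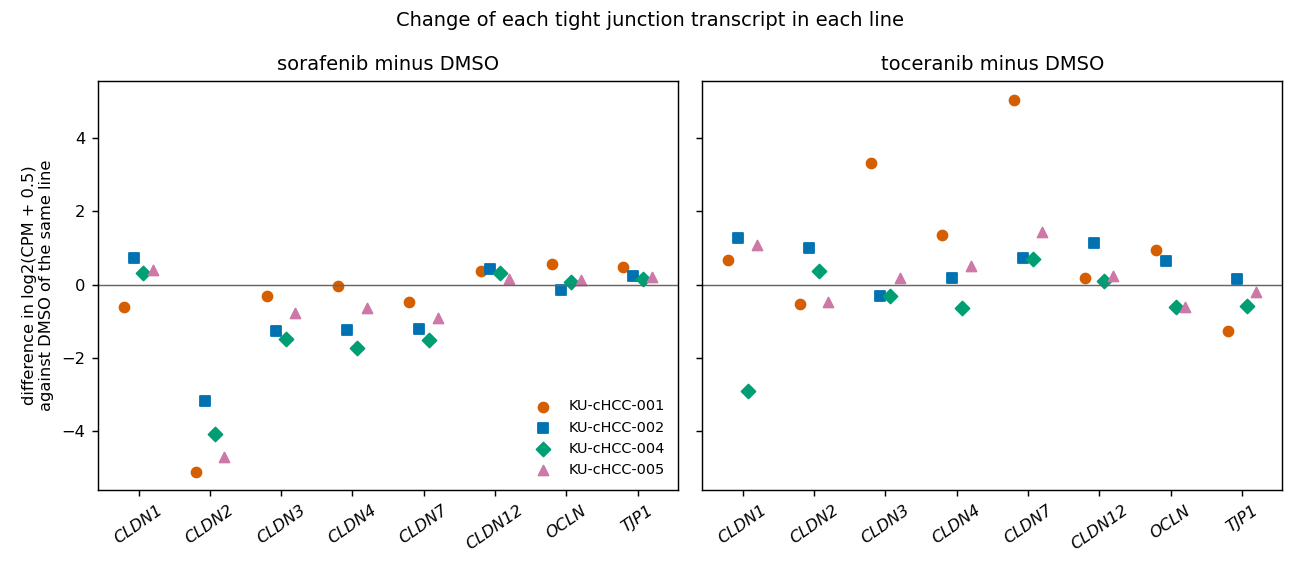
Difference of each drug from DMSO of the same line, on log2(CPM + 0.5), for the 8 genes with 1 point per line. CLDN2 lies between -5.11 and -3.19 with sorafenib in all 4 lines, and with toceranib CLDN7 of KU-cHCC-001 lies at 5.05.

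CLDN2 decreased with sorafenib by more than the sealing claudins did on average, in every line. The difference of CLDN2 from the mean of CLDN1, CLDN3, CLDN4 and CLDN7 was taken in each library on log2(CPM + 0.5), and only its change between libraries is read, since gene length is not divided out. With DMSO it was 3.08 in KU-cHCC-001 and -1.87, -3.68 and -1.90 in the 3 other lines, so KU-cHCC-001 exceeded the mean of the other lines by 5.56. Without CLDN7 in the mean this gap was 4.04. With sorafenib the values were -1.67, -4.31, -6.64 and -6.12, lower in 4 of 4 lines, by 3.59 ± 1.08 on average (SD, n = 4; changes from -4.75 to -2.44). With toceranib they were -0.05, -1.35, -2.52 and -3.17, below DMSO in KU-cHCC-001 and KU-cHCC-005 and above it in KU-cHCC-002 and KU-cHCC-004. The mean change of -0.68 ± 1.93 (SD, n = 4) was smaller than its spread, and it was -0.28 without CLDN7.

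**Figure D3:**
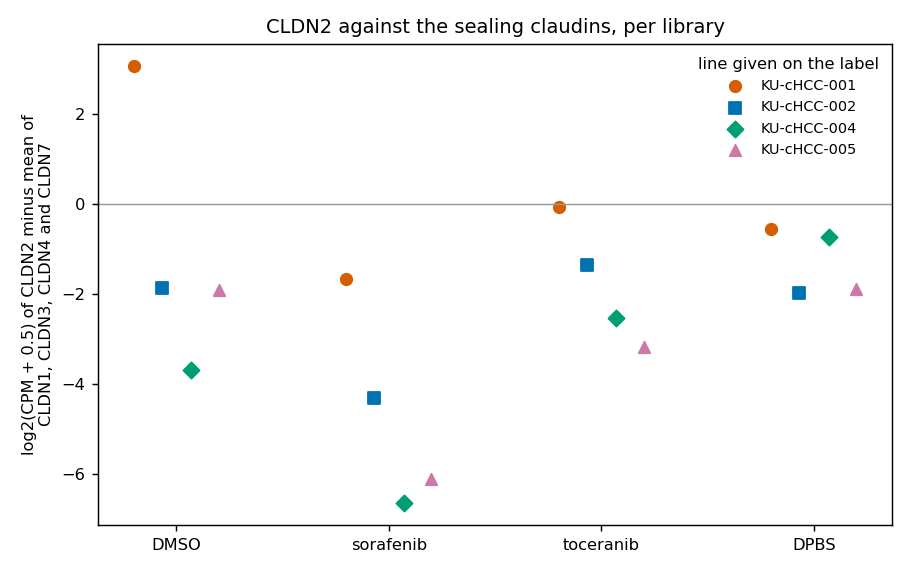
CLDN2 minus the mean of CLDN1, CLDN3, CLDN4 and CLDN7 on log2(CPM + 0.5), by treatment, with 1 point per library and the line of its label. The DMSO library of KU-cHCC-001 stands highest at 3.08, and the sorafenib library of each line lies below its DMSO library.

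With toceranib, CLDN7 was higher than with DMSO in 4 of 4 lines, and the largest differences of the 8 genes were those of CLDN7 and CLDN3 in KU-cHCC-001. CLDN7 reached 24.6 CPM in KU-cHCC-001 (588 counts against 5 with DMSO), 94.6 times the DMSO level, with an exact 95% interval of 40.3 to 292 for counting error only. It stood at 649, 736 and 604 CPM in the 3 others, or 1.67, 1.62 and 2.72 times the DMSO level, and every toceranib library of these lines lay above every DMSO library of them. CLDN3 went from 17.6 to 181 CPM in KU-cHCC-001, 10.3 times the DMSO level. In the other lines CLDN3 was 324, 288 and 209 CPM against 401, 356 and 185 CPM. CLDN4 went from 1.67 to 5.07 CPM in KU-cHCC-001 and stayed far below the 480 to 795 CPM of the other lines. MARVELD3, a relative of OCLN, went from 3.39 to 25.4 CPM in the same line. In that toceranib library the summed leukocyte markers were 331 CPM, against 15.2 CPM with DMSO and 62.3 to 74.0 CPM in the other toceranib libraries, with PTPRC at 0; their part in these values was not tested.

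CLDN2 was not lower with toceranib as a rule: it was 54.2, 67.8, 28.8 and 29.1 CPM in the 4 lines, higher than DMSO in 2 lines and lower in the other 2. The mean of 45.0 ± 19.3 CPM (SD, n = 4) overlapped that of DMSO. CLDN1 was 411, 5.06 and 82.1 CPM in KU-cHCC-001, KU-cHCC-002 and KU-cHCC-005, above DMSO in each. In KU-cHCC-004 it was 6.81 CPM against 54.6 CPM with DMSO and 67.4 CPM with sorafenib. In that toceranib library COL3A1, LUM and DCN, at 0 with DMSO, summed to 6.86 CPM. They summed to 91.1 CPM in the toceranib library of KU-cHCC-005, where CLDN1 was 82.1 CPM. In that of KU-cHCC-002 they were at 0, with CLDN1 at 5.06 CPM. A link of CLDN1 with these genes was not tested. TJP1 was 55.8 CPM in KU-cHCC-001 against 136 CPM with DMSO, and 122, 113 and 92.9 CPM in the others against 111, 170 and 108 CPM. CLDN12 was higher in 4 of 4 lines, by 0.11 to 1.14 on the log2(CPM + 0.5) scale. OCLN was higher in KU-cHCC-001 and KU-cHCC-002 and lower in KU-cHCC-004 and KU-cHCC-005, by 0.94, 0.64, -0.62 and -0.61.

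Across the 4 lines the fitted log2 fold changes for toceranib ran from -0.44 (SE 0.24) for TJP1 to 1.997 (SE 0.77) for CLDN7, with 0.03 (SE 0.29) for CLDN2. Without KU-cHCC-001 the mean difference of CLDN7 over the 3 other lines was 0.96 ± 0.42 on log2(CPM + 0.5) (SD, n = 3). As a description, since the genes were chosen on this contrast, 0 of the 8 stand among the 7.46% of all genes called by edgeR's test (644 higher, 4.31%, and 471 lower, 3.15%). The 1115 calls over all genes became 66 without the toceranib library of KU-cHCC-005, and 7, 4 and 1 on leaving out KU-cHCC-002, KU-cHCC-004 or the whole of KU-cHCC-005, against 3044 without KU-cHCC-001. A separate fit under upper quartile scaling called 1114 genes, 833 higher and 281 lower. With the vehicle DPBS, CLDN7 stood at 364, 442, 379 and 388 CPM and CLDN2 at 78.0, 64.2, 85.1 and 64.5 CPM in the 4 libraries, in the order of their labels. The levels of CLDN3 (193 to 278 CPM) and CLDN4 (449 to 556 CPM) in those libraries likewise lacked a low library. Toceranib minus DPBS, fitted over all 16 libraries without pairing the lines, gave log2 fold changes of -0.69 (SE 0.43) for CLDN2, -0.77 (SE 0.24) for TJP1 and 0.36 (SE 1.40) for CLDN7. In that contrast edgeR called 0 of 15515 genes (0.0%), with 1374 at an unadjusted p under 0.05, and DESeq2 called 89. Its 4 DPBS libraries formed close pairs (2.41 and 2.27 over sampling noise) but entered the fit as separate replicates. The SEs and calls of this contrast thus do not rest on 4 independent DPBS libraries.

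Set directly against each other, the drugs left 4 of the claudins lower with sorafenib than with toceranib. Sorafenib minus toceranib gave -4.74 (SE 0.35) for CLDN2, -3.19 (SE 0.79) for CLDN7, -1.86 (SE 0.54) for CLDN3 and -1.36 (SE 0.28) for CLDN4 on the log2 scale, each lower with sorafenib in 4 of 4 lines. TJP1 was higher with sorafenib in 4 of 4 lines, at 0.71 (SE 0.24). Without KU-cHCC-001 these were -2.21 for CLDN7, -1.06 for CLDN3 and 0.38 for TJP1, while CLDN2 gave -4.67 and CLDN4 -1.26. Without the toceranib libraries of KU-cHCC-004 and KU-cHCC-005, a setting added after seeing the data, CLDN3 gave -2.71. CLDN1, CLDN12 and OCLN gave -0.20, -0.14 and -0.01. Of all genes 38.4% were past the threshold in this contrast (2739 higher, 18.3%, and 2998 lower, 20.1%; 2055 and 3677 under upper quartile scaling, which moved the median of all genes from -0.05 to -0.19), and 5 of the 8 were, again as a description. The 5737 calls became 3017 without KU-cHCC-004 and 3117 without KU-cHCC-005. Doses differed, at 30 and 15 µM, and so did the vehicles.

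The wider set of junction genes changed with sorafenib in both directions. Its lists were chosen with earlier results of these data known, so shares over them are no independent support. They held 109 genes in 8 groups, of which 106 were in the files and 87 could be tested. By edgeR's test 8 rose and 12 fell, 23.0% of those tested against 19.6% of all genes, and their median log2 fold change was -0.14 against -0.02. Of 8 other claudins 3 fell and none rose (CLDN6, CLDN23 and CLDN9): CLDN6, an embryonic claudin, went from 41.1, 120, 44.8 and 84.4 CPM to 24.5, 59.1, 18.5 and 38.6 CPM, lower in 4 of 4 lines (log2 fold change -1.07, SE 0.17, edgeR adjusted p = 0.00271). CLDN23 fell with an adjusted p of 0.0454 in edgeR's test, in 3 of 4 lines, being at 0.209 CPM in KU-cHCC-001 with DMSO. CLDN9 stayed under 5 CPM. Of 9 other membrane proteins CRB3, a polarity protein of the apical surface, was the 1 that fell (-1.03, SE 0.17, edgeR adjusted p = 0.00346). ST14 (matriptase), a membrane protease that acts on EPCAM, was the 1 of 6 genes of that axis that fell (-1.36, SE 0.19, edgeR adjusted p = 0.00168).

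Scaffold and polarity genes moved both ways, 4 up and 3 down of 21, or 33.3% called against 19.6% of all genes. ARHGEF2, a RhoA activator held at tight junctions, went from 67.6, 50.8, 68.0 and 57.0 CPM to 165, 135, 178 and 141 CPM, with no overlap (1.33, SE 0.16, edgeR adjusted p = 0.000811). MAGI2 (1.28), PARD3B (0.70) and PARD3 (0.53) rose as well. TJP3 (ZO-3), a relative of TJP1, fell in 4 of 4 lines (-1.13, SE 0.17, edgeR adjusted p = 0.00199), as did CGN (cingulin, -0.71). Of 11 actomyosin genes MYH14 fell (-0.74), and of 16 genes of adherens junctions and desmosomes PKP3 (-1.22) and JUP (-0.64) fell.

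Among regulators, 2 of 13 transcription factors of epithelial junction genes rose and 1 fell. That is 23.1% of the 13, near the 19.6% of all genes called. KLF4 went from 7.51, 14.5, 12.7 and 38.1 CPM to 63.7, 35.2, 44.0 and 92.0 CPM (1.83, SE 0.32, edgeR adjusted p = 0.00451), and TFCP2L1 rose by a like amount (1.82, SE 0.38). Of 3 repressors tested, SNAI1, which represses claudin and cadherin genes, rose in 4 of 4 lines (2.18, SE 0.34, edgeR adjusted p = 0.00270), from 0.886, 5.36, 21.0 and 7.29 CPM to 3.34, 52.9, 69.6 and 28.2 CPM. SNAI2 rose with an edgeR adjusted p of 0.0495, which 8 of 13 alternative settings put above the threshold. Leaving out 1 line ended 3 to 9 of the calls on the genes named. Those of CLDN23, CGN, MAGI2, MYH14 and JUP were lost on leaving out KU-cHCC-002, and likewise KU-cHCC-004 or KU-cHCC-005, as were PARD3 and SNAI2, and PARD3B without KU-cHCC-004 or KU-cHCC-005. JUP, PARD3 and SNAI2 were lost without KU-cHCC-001 too.

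**Figure D4:**
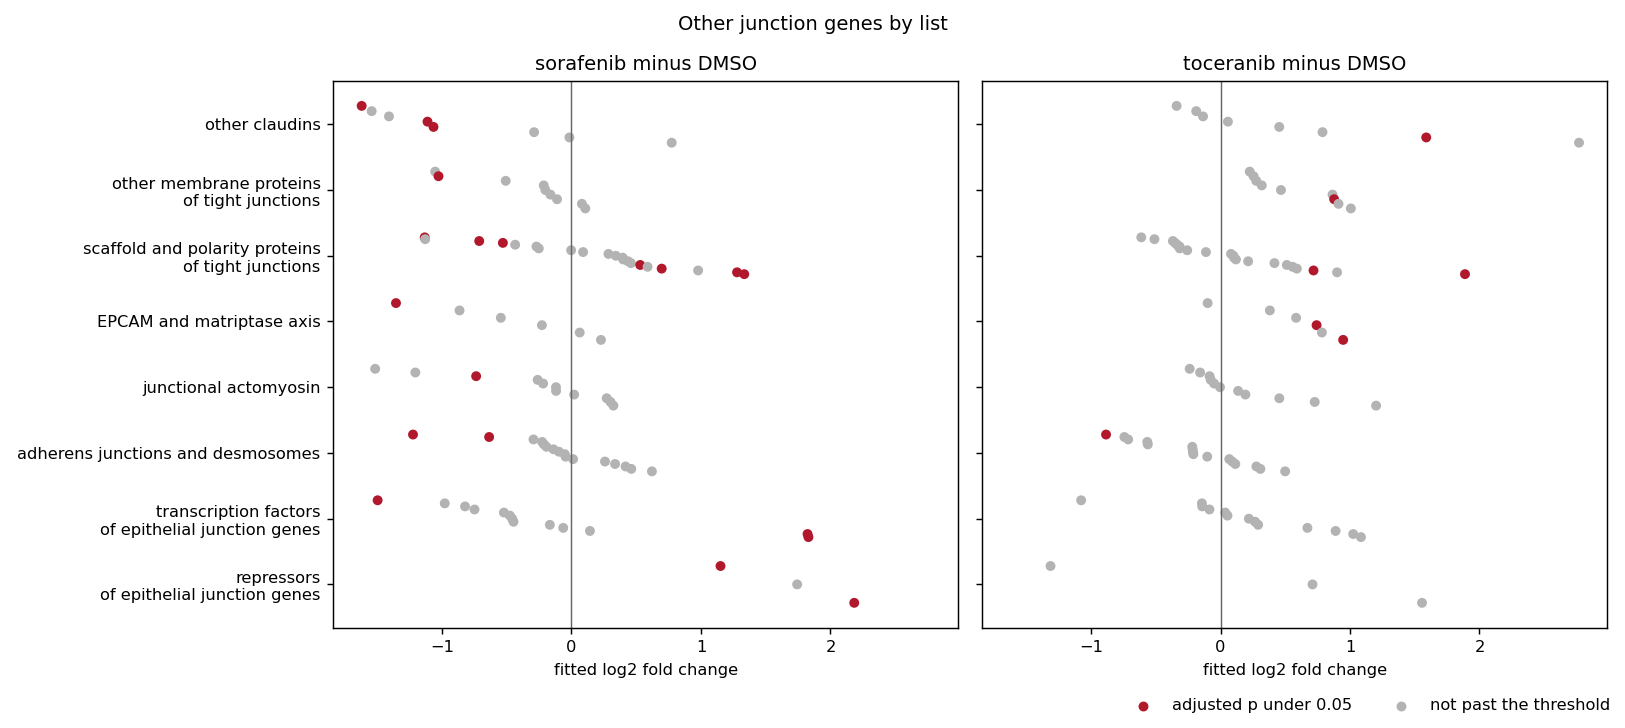
Fitted log2 fold change of the 87 further junction genes tested, by functional group, for sorafenib minus DMSO (left) and toceranib minus DMSO (right), with 1 point per gene, spread vertically by rank within its group. Points in red passed edgeR's test: 8 rose and 12 fell with sorafenib, 6 rose and 1 fell with toceranib.

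With toceranib 6 of the 87 rose and 1 fell against DMSO, 8.05% against 7.46% of all genes, with a median log2 fold change of 0.12 against -0.01. EPCAM, the adhesion protein that partners CLDN7, went from 229, 286, 264 and 313 CPM to 513, 685, 422 and 478 CPM, with no overlap (0.95, SE 0.20, edgeR adjusted p = 0.0243). SPINT2, an inhibitor of matriptase, rose by 0.74 (SE 0.19). IGSF5 (JAM4) rose by 0.88 (SE 0.16), the scaffold gene AMOT by 1.89 (SE 0.35) and TJP3 by 0.72 (SE 0.16). CLDN15, which forms cation channels, rose by 1.59 (SE 0.41) at 3.99 CPM or less, below the level set for naming genes. PKP3, a desmosome plaque protein, fell by 0.88 (SE 0.22). Without the toceranib library of KU-cHCC-005, 0 of the 7 calls remained. The same was true on leaving out the whole of KU-cHCC-005, of KU-cHCC-004 or of KU-cHCC-002. In the DPBS libraries EPCAM stood at 394 to 491 CPM and IGSF5 at 68.9 to 74.1 CPM, above every DMSO library for both genes.

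In the direct contrast of the drugs, 15 of the 87 were higher and 27 lower with sorafenib, 48.3% against 38.4% of all genes. Of all genes, 18.3% were higher and 20.1% lower. The lower ones held 5 of 8 other claudins, 5 of 9 membrane proteins, among them MARVELD3 (-1.42, SE 0.36) and CRB3 (-1.35, SE 0.17), and 4 of 6 genes of the EPCAM and matriptase axis, among them ST14 (-1.94, SE 0.19) and EPCAM (-0.72, SE 0.20). TJP3 gave -1.85 (SE 0.17) and ARHGEF2 1.59 (SE 0.16). Of the transcription factors 6 of 13 were lower, HNF4A (-1.77), OVOL1 (-1.54), OVOL2 (-0.86) and GRHL2 (-0.79) among them, and KLF4 and TFCP2L1 were higher. SNAI1 (1.47) and SNAI2 (2.46) were higher with sorafenib. On leaving out 1 line, the call of OVOL2 was lost for each of the 4, that of KLF4 for KU-cHCC-001, KU-cHCC-004 and KU-cHCC-005, and that of GRHL2 for KU-cHCC-002 and KU-cHCC-005. The call of OVOL1 was lost without KU-cHCC-005, and those of MARVELD3 and EPCAM without KU-cHCC-002. KLF4 and GRHL2 were also lost without the toceranib library of KU-cHCC-005 alone. The counts over the 87 became 10 to 15 higher and 14 to 31 lower on leaving out 1 line. Among the lower claudins, CLDN6, CLDN34 and CLDN23 lost their calls in 2, 7 and 9 of 13 alternative settings. The remaining lower claudins had means under 5 CPM.

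The 8 genes fell into sets with different patterns over the 12 DMSO, sorafenib and toceranib libraries, which share lines and treatments. On log2(CPM + 0.5), CLDN3, CLDN4 and CLDN7 followed each other, with Pearson's r of 0.856 for CLDN3 with CLDN4, 0.946 for CLDN3 with CLDN7 and 0.956 for CLDN4 with CLDN7. In the 9 libraries without KU-cHCC-001 these were 0.968, 0.813 and 0.853. CLDN1 ran against all 3 in the 12 libraries (r of -0.604, -0.726 and -0.638), and less so in the 9 without KU-cHCC-001 (-0.511, -0.374 and -0.243). CLDN2 was nearly unrelated to CLDN4 over the 12 (r = 0.0189), and the value was 0.831 in the 9 without KU-cHCC-001. OCLN followed CLDN4 over the 12 (r = 0.852) and not in the 9 (r = 0.147).

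Among the 14938 genes tested, the patterns most like CLDN2 over the 12 libraries were those of H2AX (r = 0.966), a histone gene, SRSF6 (r = 0.960), a splicing factor gene, LOC106559464 (r = 0.958), HEXIM1 (r = 0.958), whose protein restrains the elongation factor P-TEFb, and LOC100856231. CLDN2 varied there mostly by its drop with sorafenib, so choosing genes by r favours that pattern. Each of the 5 had its lowest mean with sorafenib. H2AX averaged 36.7, 7.28 and 33.0 CPM with DMSO, sorafenib and toceranib, and HEXIM1 averaged 132, 35.2 and 132 CPM. Among those most like CLDN4 were KYAT1 (r = 0.991), STAP2 (r = 0.991), EPHB3 (r = 0.990), a receptor of the ephrin family, and TMPRSS13 (r = 0.989), a membrane serine protease gene. Over the 12 libraries CLDN4 was 1.62 to 5.07 CPM in KU-cHCC-001 and 218 to 803 CPM in the other lines. A high r with CLDN4 thus rests largely on this difference between lines. KYAT1 averaged 81.6, 68.6 and 75.3 CPM with DMSO, sorafenib and toceranib. EPHB3 averaged 40.7, 32.2 and 55.4 CPM in the same order, and TMPRSS13 averaged 66.1, 25.2 and 91.6 CPM.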

How the data were processed

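RNA was extracted with Trizol and libraries were made with a kit that keeps strand, per the labels' protocols. The authors deposited whole-number read counts per gene symbol without normalization. Alignment software is listed as TopHat per the submitters' processing notes. Software versions, the read counter and its strand mode, the assembly and the gene models were not given in the sources used here. A RefSeq gene table (UU_Cfam_GSD_1.0) served for names and neighbours only. Counts of overlapping or near-identical genes are uncertain.

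Of 39954 entries, 500 shared 89 symbols and were summed, giving 39543 symbols, 28342 with a read. Total counts spanned 17055803 to 19917958 for DMSO, 12008366 to 21943572 for toceranib, 19667162 to 20312123 for sorafenib and 16349457 to 17959057 for DPBS. Reads carried no molecular identifiers, so intervals and floors of 3 counts cover counting error only.

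Samples were grouped by the treatment label, with the line as replicate. The 12 DMSO, sorafenib and toceranib libraries were fitted in edgeR 4.0.16 (R 4.3.3, limma 3.58.1) with filterByExpr (14938 genes), TMM scaling, treatment and line as terms, and robust quasi-likelihood F-tests with 6 residual degrees of freedom. Adjusted p-values are Benjamini-Hochberg over all genes tested, called under 0.05. Toceranib minus DPBS used all 16 libraries without the line (15515 genes). CPM were computed from TMM library sizes over 16 libraries. Line differences use a pseudocount of 0.5 CPM. The fit of the 12 libraries was tested on simulated counts for sorafenib minus DMSO. It recovered 57% of log2 changes of 1 and 100% of those of 2, and 4.85% of its calls were false. A change of about 1 that was not called is thus no sign of its absence.

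The labels pair libraries by line. Deviations from the treatment means correlated at 0.75 to 0.892 between DMSO and sorafenib of 1 line, and at 0.555 to 0.794 between DMSO and toceranib. Between DPBS and toceranib the values were -0.505 to 0.55, so the line stayed out of that fit.

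The 8 genes, the junction gene lists and the marker lists were chosen with earlier results of these data known. From each list up to 5 genes per direction are named, by fold change, if they had an adjusted p under 0.05 and a mean of 5 CPM in either group. For the line comparison up to 5 with the largest gap are named, and for likeness the 5 with the highest Pearson correlation. Alternatives were DESeq2 1.42.0, other scalings, no low count filter, other sets of libraries, no line term, pseudocounts, fold limits, and leaving out each line. CLDN22, PALS1 and MYL12A were not analysed here. Some genes that these rules pick are not reported here by name, and they stay in the counts.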

Additional observations from a re-analysis of the deposited data

Results flagged for a closer look

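CLDN1 moved with sorafenib in opposite directions by line: on log2(CPM + 0.5) it was lower than DMSO in KU-cHCC-001 by a difference of -0.60 and higher in the 3 other lines by 0.73, 0.30 and 0.41. The difference between the lines was not tested, since each line has 1 library per treatment.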

How the results depend on the processing

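The 2935 genes called for sorafenib minus DMSO became 5053 with the 8 libraries of the 2 groups, 464 without the replicate block and 596 to 3906 on leaving out 1 line. The 8 junction genes that rose became 5 with all 16 libraries, 16 with 8, 1 without the block and 4 to 8 without a line, and the 12 that fell became 5, 21, 0 and 7 to 17. For toceranib minus DMSO the 1115 calls became 557 with 16 libraries, 129 with 8, 0 without the block (2048 at an unadjusted p under 0.05), 2335 with DESeq2, 66 without the toceranib library of KU-cHCC-005 and 1 to 3044 without a line. Without the toceranib libraries of KU-cHCC-004 and KU-cHCC-005, chosen after seeing the data, they were 0 (2639 unadjusted). The 6 junction genes that rose became 3, 1, 0, 12, 0 and 0 to 15 in that order, and 0 in the setting added later. The 1 that fell became 0 with 16 or 8 libraries, without the block, with upper quartile scaling and without those toceranib libraries, 5 without a filter, 6 with DESeq2 and 0 to 5 without a line. Sorafenib minus toceranib went from 5737 to 2159 without the block, 2441 in the added setting and 3017 to 6750 without a line, its 15 higher junction genes to 3 and 10 to 15, and its 27 lower ones to 14 with 16 libraries, 7 without the block and 14 to 31. Toceranib minus DPBS gave 1 with 8 libraries, 89 with DESeq2, 0 with the replicate block and 0 to 1 without a line. A 2-fold gap gave 1216 genes lower and 1339 higher in KU-cHCC-001. The gap of KU-cHCC-001 in CLDN2 against the sealing claudins, 5.56, was 4.04 without CLDN7, and its change with sorafenib was -2.85 on log2(CPM + 2). The fitted value of CLDN2 for sorafenib minus DMSO lay between -5.18 and -4.38 under every alternative run. CLDN1 for sorafenib was -0.31 without the block, and for toceranib CLDN2, CLDN3, CLDN4 and OCLN, none of them called, changed sign under a setting: CLDN2 without KU-cHCC-002 (-0.24), KU-cHCC-004 (-0.09) or a filter (-0.02), CLDN3 without KU-cHCC-001 (-0.13), CLDN4 without the block (-0.03) and OCLN without KU-cHCC-001 (-0.12) or KU-cHCC-002 (-0.10). Depth limits CLDN7 in KU-cHCC-001, with 5 counts with DMSO and 1 with sorafenib.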

Other observations

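In the DPBS libraries, the levels of several claudins went with the close pairs of libraries, and those of CLDN1, CLDN34 and CLDN18 are given here as examples chosen after their values were seen. CLDN1 stood at 3.33 CPM in the library named KU-cHCC-001 and 6.33 CPM in its close partner, named KU-cHCC-004, and at 101 and 99.1 CPM in the second pair, named KU-cHCC-002 and KU-cHCC-005. CLDN34 stood at 6.81 and 8.81 CPM in the former pair and at 27.5 and 22.7 CPM in the latter. CLDN18, known from stomach and lung, stood at 0.107 and 0.0591 CPM against 7.58 and 10.5 CPM. With toceranib, CLDN18 was 6.10 and 5.08 CPM in KU-cHCC-004 and KU-cHCC-005 and 0.0595 CPM or less in the other 2 libraries. In CLDN5 (1.45 and 1.66 against 4.26 and 4.11 CPM), CLDN6 (84.8 and 94.6 against 61.8 and 59.4 CPM) and CLDN3 (250 and 278 against 197 and 193 CPM) the pairs also lay apart. CLDN1 with toceranib was low in KU-cHCC-002 and KU-cHCC-004 (5.06 and 6.81 CPM).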
